A study of Mus musculus with 6 samples.

Results

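The locus described here is a stretch of mouse chromosome 5 in which the table of long noncoding RNAs (lncRNAs) listed 13 of its 24817 transcripts, between positions 104582395 and 104589005. Members were selected on measured values: the interval was chosen because 1 of its transcripts, NONMMUT118967.1, was among the most abundant of the table and because another, MSTRG.43759.9, was among those with the largest rise, so both values are given below as descriptions. All transcripts listed wholly inside the chosen interval were counted as members: 11 assembled transcripts, MSTRG.43759.1 to MSTRG.43759.11, and 2 transcripts of the NONCODE catalogue, NONMMUT118967.1 and NONMMUT053463.2. Another 6 listed transcripts reached into the interval from outside and held 591 counts in all libraries together, against 1611657 for the 13 members.

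RAW264.7, an established line of mouse macrophages, was treated with lipopolysaccharide (LPS), a bacterial cell wall component that activates macrophages, for 24 h in both groups. The LPS_ES_PMMA group (n = 3) was then kept in medium with an extract of PMMA (polymethyl methacrylate) bone cement that carried enoxaparin sodium, a heparin-type anticoagulant, and the LPS_PMMA group (n = 3) in medium with an extract of PMMA cement without it. The titles and treatment labels name the second group LPS_PMMA, while its descriptions and the columns of its values read LPS, so whether those cells also met plain cement extract rests on the titles. Nothing in the labels says that the 3 samples of a group were separate cultures, so p-values given below reflect how far these samples differ, a spread that may be technical.

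Spp1 encodes osteopontin, a secreted phosphorylated glycoprotein that binds integrins and CD44 on cells and adheres to mineral in bone. Macrophages, osteoclasts and osteoblasts make it, and in macrophages it is known as a product of activated cells that supports adhesion and migration. It belongs to the SIBLING family of bone and tooth matrix proteins, whose genes lie side by side on mouse chromosome 5.

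The members were compared with Spp1 by size, since the labels name the build mm10 (GRCm38) and the annotation used here, GENCODE M21, is of that build. As listed, the interval began 133950 bases beyond the end of Spp1 (5, 104435118 to 104441050, plus strand), and 0 genes of GENCODE M21 overlapped it. Of the 13 listed spans, 10, all of them assembled transcripts, nevertheless had dimensions close to those of Spp1. Its main transcript has 7 exons, a first exon of 79 bases, a spliced length of 1410 bases and 4523 intronic bases, and is called the short form here. Another, the long form, has a first exon of 128 bases and 4471 intronic bases. Of the assembled transcripts, 7 held intronic bases (span minus length) within 3 of the short form (MSTRG.43759.1, MSTRG.43759.2, MSTRG.43759.4, MSTRG.43759.5, MSTRG.43759.6, MSTRG.43759.9 and MSTRG.43759.10). Another 3 were within 3 bases of the long form (MSTRG.43759.7, MSTRG.43759.8 and MSTRG.43759.11), and MSTRG.43759.3, with 4460, was near neither. The spans of the NONCODE members, 2447 bases for NONMMUT118967.1 and 3877 for NONMMUT053463.2, were shorter than that of Spp1. MSTRG.43759.9 had a length of 1387 bases, MSTRG.43759.10 one of 1388 and MSTRG.43759.11 one of 1441, all 3 listed from 104582993 to 104588904. Among 141862 GENCODE transcripts of all chromosomes, those matching an assembled member in span (within 100 bases) and in intronic bases (within 3) numbered at most 4 per member. A Spp1 transcript was among them for 10 of 11, and no other gene of chromosome 5 was.

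The shift in position was shared with the assembled transcripts nearest on the chromosome. The starts of the 10 matched members lay 147847 to 147875 bases past those of their Spp1 transcripts. For other transcripts, matches were sought in the same way (here with a span within 200 bases) within 1 Mb on either side. Larger offsets could therefore not be found, and only transcripts with at least 500 intronic bases were compared. The 4 other assembled transcripts within 10 Mb that had such a match lay 147859 to 147947 bases past theirs, 2 of them at 147859. Farther along chromosome 5 the offset took other values, from -63190 to 205052 over all 24 other matched assembled transcripts, and 0 of the 24 lay within 300 bases of their match. Over all chromosomes, 0.481% of the 416 assembled transcripts with such a match lay within 300 bases of it, against all 1111 matched Ensembl transcripts (100%) and 65.4% of 237 matched NONCODE transcripts. Assembled and annotated transcripts were thus listed with different offsets to GRCm38. A NONCODE transcript listed near the interval, NONMMUT118961.1, began 1 base after the gene D930016D06Rik of GENCODE M21 and ended 5 bases after it. Whether the 2 NONCODE members are placed in the same way, or overlap Spp1 on any single build, was not tested. The sum over the interval and every share of it given below are therefore sums over listed positions: they may add transcripts of different places, or count reads of Spp1 under several names. The build GRCm39 was not used here.

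Relative to the assembled members, NONMMUT118967.1 (104586559 to 104589005) is a single block of 2447 bases that begins 3566 bases after the start of MSTRG.43759.9 and shares 2346 bases with its span. In the short form of Spp1 the last 2 exons, of 282 and 822 bases, begin 4147 and 5111 bases after the start and hold most of the spliced sequence. NONMMUT118967.1 and MSTRG.43759.3 end on the same base, 104589005, and MSTRG.43759.3 was 1 of 2 assembled transcripts, of 2305, to share an end with an annotated one. NONMMUT053463.2 (104582395 to 104586271, length 3608) begins 598 bases before MSTRG.43759.9 and ends 3278 bases into it, 287 bases short of NONMMUT118967.1. The authors classed both NONCODE members as intergenic and the 11 assembled members as antisense, but the strand and gene columns of all 13 gave no entry and the sources used here do not state how the counting treated strand. Reads of Spp1 and of a transcript on its opposite strand therefore cannot be told apart.

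**Figure D1:**
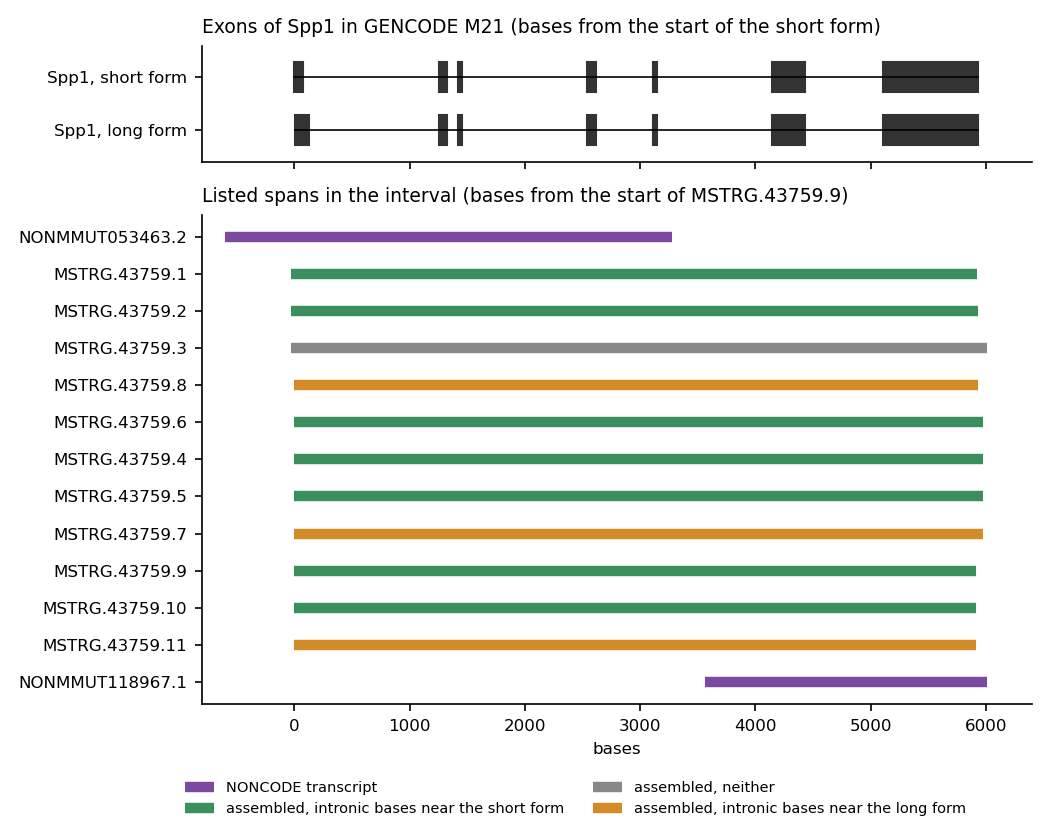
The upper panel draws the exons (boxes) of the short and the long form of Spp1 in bases from the start of the short form, and the lower panel the listed span of each of the 13 members in bases from the start of MSTRG.43759.9, on the same scale. The assembled spans are about as long as Spp1, NONMMUT118967.1 is drawn by its listed distance from MSTRG.43759.9, not by a position in Spp1, and exons inside the listed spans are not drawn because the table gives none.

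The promoter of Spp1 is shown because it is the start region of the gene whose dimensions the assembled members share. It is the RefSeq entry for GRCm38.p6, chr5:104434861-104435160, plus strand, with 250 bases before the annotated start and 50 after it, and capitals mark 2 motif matches:
Spp1 promoter: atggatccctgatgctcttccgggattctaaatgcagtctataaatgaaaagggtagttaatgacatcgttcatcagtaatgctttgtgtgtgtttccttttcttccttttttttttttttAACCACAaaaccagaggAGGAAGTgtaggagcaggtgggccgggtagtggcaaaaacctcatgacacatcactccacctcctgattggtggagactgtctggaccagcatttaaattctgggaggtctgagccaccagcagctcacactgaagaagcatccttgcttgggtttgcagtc
The first, AACCACA, is a motif of RUNX factors such as Runx2, the master regulator of osteoblasts, and lies 129 bases before the start. The second, AGGAAGT, is a motif of PU.1 (Spi1), the factor that directs macrophage development, and lies 112 bases before it. On either strand, AACCACA occurred in 5.27% and AGGAAGT in 9.35% of 32851 promoters of the same length. The letters searched for AP-1 (TGANTCA, in 7.81% of promoters) and the Mitf E-box (CACATG, 14.2%) had 0 matches in this window on either strand. Those for the GC box of Sp1 (GGGCGG, 35.7%) and RBPJ (GTGGGAA, 6.38%) had 0 matches as well. For NF-kB a loose pattern with free middle bases was searched, which occurred in 50.8% of promoters and also had 0 matches here.

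NONMMUT118967.1 carried almost all counts listed for the interval. It held 379178, 177913 and 411645 counts in LPS_ES_PMMA 1 to 3, against 139392, 218808 and 212394 in LPS_PMMA 1 to 3. As FPKM, the authors' level scaled by transcript length and library total, it stood at 34451, 29341 and 39047 in LPS_ES_PMMA and at 12722, 21553 and 22404 in LPS_PMMA, so all 3 LPS_ES_PMMA libraries were above all 3 LPS_PMMA libraries. It ranked 5 among all listed transcripts by mean FPKM (26586), and 5 in each library but LPS_PMMA 3, where it ranked 6. The 4 transcripts above it in mean FPKM were MSTRG.12264.1 (604995), MSTRG.12263.1 (143406), ENSMUST00000157463 (119149) and MSTRG.17528.3 (101857). All 4 were lowest in LPS_ES_PMMA 2, at 229552, 0, 52545 and 56959 FPKM in the same order. NONMMUT118967.1 made up 94.97%, 96.0% and 95.8% of the counts of the locus in LPS_ES_PMMA 1 to 3. In LPS_PMMA 1 to 3 it made up 94.6%, 95.6% and 96.0%. The exact (Clopper-Pearson) 95% intervals of these shares were at most 0.231 percentage points wide. The groups overlapped in that share. Such intervals cover counting error only, since the labels name no molecular identifiers.

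The sum of the 13 members was 399280, 185304 and 429894 counts in LPS_ES_PMMA 1 to 3, against 147285, 228761 and 221133 in LPS_PMMA 1 to 3. That was 12.2%, 16.5% and 14.0% of all listed counts in LPS_ES_PMMA and 3.98%, 7.04% and 7.68% in LPS_PMMA, with exact 95% intervals at most 0.137 points wide. The LPS_ES_PMMA 2 library was the shallowest, with 1123551 listed counts, and the other 5 held at least 2877523. It was also the lowest in each of the 4 transcripts of highest mean FPKM. How far that bears on its share of 16.5% was not tested. The locus averaged 14.2% ± 2.14 of listed counts in LPS_ES_PMMA and 6.24% ± 1.98 in LPS_PMMA (SD, n = 3 each), a ratio of 2.28, and the groups did not overlap. Against the library totals implied by the FPKM values the means were 8.78% ± 1.25 in LPS_ES_PMMA and 4.84% ± 1.34 in LPS_PMMA.

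The size of the difference depended on how libraries were scaled. The sum averaged 111886 ± 28569 CPM (counts per 1e+06 counts, scaled by TMM, edgeR's trimmed-mean normalization) in LPS_ES_PMMA and 80758 ± 8846 in LPS_PMMA (SD, n = 3 each), a ratio of 1.39. The lowest LPS_ES_PMMA library (93868) was close to the highest LPS_PMMA library (90028). In edgeR's quasi-likelihood test over all features, the sum changed by a log2 ratio of 0.47 (SE 0.48) with TMM, with a Benjamini-Hochberg adjusted p of 0.618, by 1.21 (adjusted p = 0.127) with column totals and by 0.86 (adjusted p = 0.288) with the totals implied by FPKM. It passed an adjusted p of 0.05 in 0 of 19 alternatives, among which the limma fit of summed FPKM was entered again under another name. The median of all 8873 tested features stood at 0.03 with TMM, 0.82 with column totals and 0.46 with the implied totals, so that relative to that median the sum was between 0.39 and 0.44 higher on the log2 scale. NONMMUT118967.1 alone gave 0.47 on the same scale, with an SE of 0.47 and an adjusted p of 0.601 in edgeR. Its level was known before these tests were chosen, so they are no independent evidence. In bulk RNA, fewer cells with a transcript and less of it per cell cannot be told apart.

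**Figure D2:**
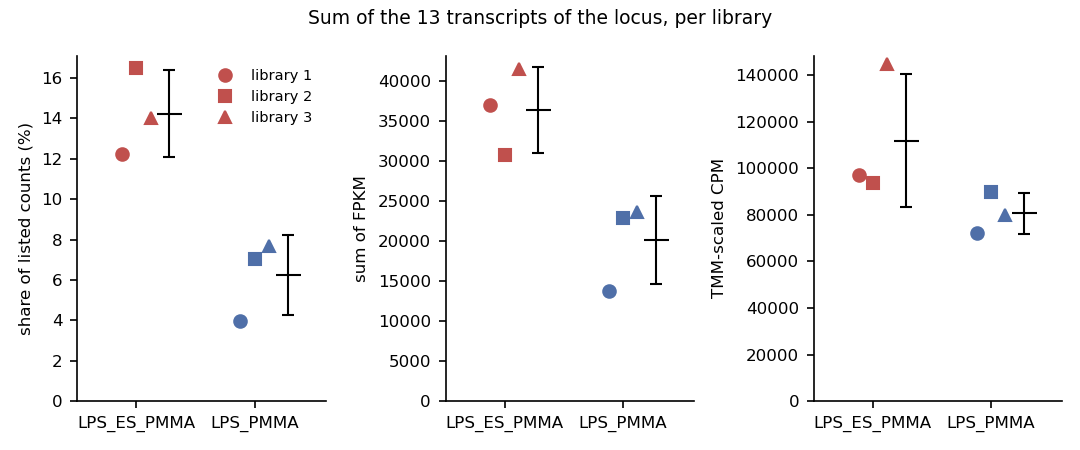
Each panel plots the summed locus for each library, as the share of listed counts (%), the sum of FPKM, and TMM-scaled CPM; black marks are means with SD (n = 3). The LPS_ES_PMMA libraries lie above the LPS_PMMA libraries on all 3 scales, with means of 14.2% against 6.24%, 36402 against 20092 FPKM, and 111886 against 80758 CPM.

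The other NONCODE member was far less abundant and its groups also stood apart. NONMMUT053463.2 had 6900, 3788 and 5539 counts in LPS_ES_PMMA 1 to 3, against 2247, 2795 and 3196 in LPS_PMMA 1 to 3, or 1820 ± 128 CPM against 1120 ± 29.9 CPM (SD, n = 3 each). It was 0.70 higher on the log2 scale in LPS_ES_PMMA (SE 0.24), which did not pass edgeR's test (adjusted p 0.141). It made up 1.73%, 2.04% and 1.29% of the locus in LPS_ES_PMMA and 1.53%, 1.22% and 1.45% in LPS_PMMA, which overlapped, and the exact 95% intervals were at most 0.129 points wide. The 11 assembled members together made up 3.31%, 1.94% and 2.96% in LPS_ES_PMMA and 3.83%, 3.13% and 2.51% in LPS_PMMA, at most 0.197 points wide. These shares overlapped between the groups as well.

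Within the assembled members, reads were divided differently in the groups. MSTRG.43759.9 held 3221, 1321 and 3933 counts in LPS_ES_PMMA 1 to 3, against 0, 0 and 27 in LPS_PMMA 1 to 3. By counting error alone, a count of 0 allows a share of the locus of up to 0.00204% in LPS_PMMA 1 and 0.00131% in LPS_PMMA 2 (3 counts). These limits do not cover how reads shared with other members were assigned. In LPS_ES_PMMA 1 to 3, MSTRG.43759.9 made up 0.807%, 0.713% and 0.915% (exact 95% intervals at most 0.0772 points wide). MSTRG.43759.10, whose listed ends are the same and whose length differs by a single base, followed it with 3139, 554 and 3055 counts in LPS_ES_PMMA against 18, 9 and 28 in LPS_PMMA. MSTRG.43759.11, with the same ends and the intronic bases of the long form of Spp1, went the opposite way with 2614, 168 and 1644 counts in LPS_ES_PMMA against 4906, 4652 and 3799 in LPS_PMMA. The groups overlapped in none of these 3; over all tested features they did not overlap in 30.8% by TMM-scaled CPM.

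As TMM-scaled CPM, MSTRG.43759.9 averaged 925 ± 351 in LPS_ES_PMMA and 3.25 ± 5.63 in LPS_PMMA, and MSTRG.43759.10 averaged 691 ± 379 in LPS_ES_PMMA and 7.50 ± 3.49 in LPS_PMMA (SD, n = 3 each). MSTRG.43759.11 averaged 425 ± 297 CPM in LPS_ES_PMMA and 1871 ± 521 CPM in LPS_PMMA. The log2 fold changes, given as descriptions, were 8.08 (SE 1.46) for MSTRG.43759.9, 6.52 (SE 0.67) for MSTRG.43759.10 and -2.14 (SE 0.67) for MSTRG.43759.11. That of MSTRG.43759.9 rests on the 27 counts of LPS_PMMA 3, since 2 of 3 LPS_PMMA libraries had no reads.

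All 13 members passed the filter on low counts, and 2 of them (15.4%), MSTRG.43759.9 and MSTRG.43759.10, passed an adjusted p of 0.05, both higher in LPS_ES_PMMA, where 4.76% of all tested features passed, 2.18% higher and 2.58% lower. Nothing is read from that count, since the locus was chosen with this comparison known. When each library was left out in turn, MSTRG.43759.10 passed 6 of 6 times and MSTRG.43759.9 passed 1 of 6, without LPS_PMMA 3, where its log2 fold change was 14.30. CPM of the groups did not overlap for 5 members, NONMMUT118967.1, NONMMUT053463.2, MSTRG.43759.9, MSTRG.43759.10 and MSTRG.43759.11, against 30.8% of all tested features (5 members by FPKM too, against 32%). The median log2 fold change was 1.10 over the members and 0.03 over all tested features. The 1.10 is the value of MSTRG.43759.2 (SE 1.59), which was -1.61 without LPS_ES_PMMA 2. Members may share reads, and both the sum and NONMMUT118967.1 stood at 0.47, so the median does not describe the locus as a whole. Across all features, 193 passed higher and 229 lower with TMM, 302 and 68 with column totals, and 248 and 96 with the implied totals.

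**Figure D3:**
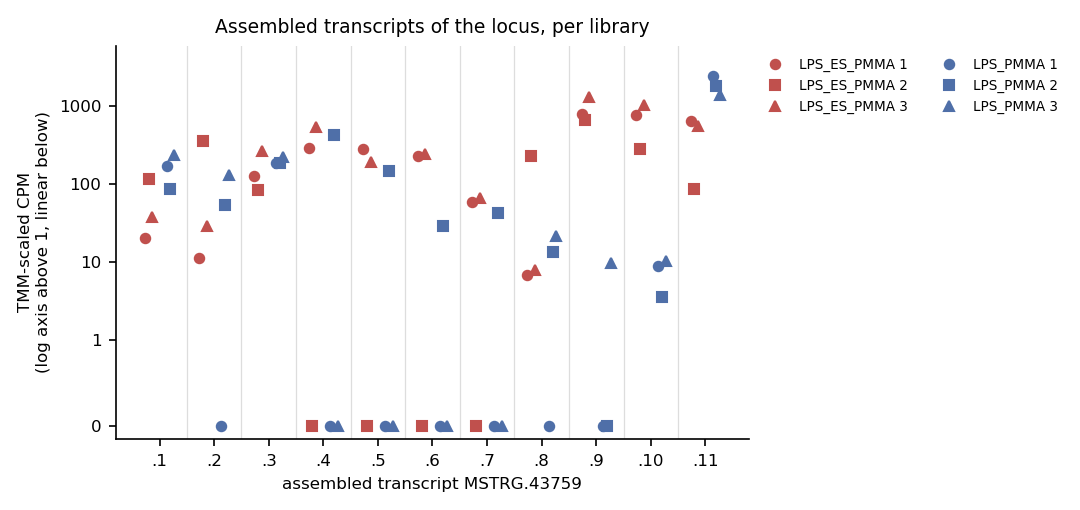
Points give the TMM-scaled CPM of each of the 11 assembled members in each library (log axis above 1, linear below), LPS_ES_PMMA left of LPS_PMMA within each transcript. MSTRG.43759.9 and MSTRG.43759.10 sit between 281 and 1325 CPM in LPS_ES_PMMA and at most at 10.1 CPM in LPS_PMMA, MSTRG.43759.11 is higher in LPS_PMMA, and MSTRG.43759.4 to MSTRG.43759.7 are at 0 in the same 3 libraries.

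The remaining assembled members differed between libraries of the same group. MSTRG.43759.4, MSTRG.43759.5, MSTRG.43759.6 and MSTRG.43759.7 share the same listed ends, and their summed counts were 3551, 0 and 3063 in LPS_ES_PMMA 1 to 3 against 0, 1634 and 0 in LPS_PMMA 1 to 3, with each of the 4 at 0 in LPS_ES_PMMA 2, LPS_PMMA 1 and LPS_PMMA 3. LPS_ES_PMMA 2 was the highest library for MSTRG.43759.2, with 46, 709 and 86 counts in LPS_ES_PMMA against 0, 137 and 362 in LPS_PMMA, and for MSTRG.43759.8, with 28, 454 and 23 in LPS_ES_PMMA against 0, 34 and 59 in LPS_PMMA. MSTRG.43759.1 had 83, 231 and 111 counts in LPS_ES_PMMA against 349, 217 and 647 in LPS_PMMA, and MSTRG.43759.3 had 520, 166 and 795 in LPS_ES_PMMA against 373, 475 and 621 in LPS_PMMA. The groups overlapped for all 8. Of the 13 members, 7 had no reads in at least 1 library, and 6 had reads in all of them. The members share exons as far as their sizes tell, and the sources used here do not say how the authors assigned a shared read, so the counts of single assembled members are uncertain.

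The division was followed as a share. MSTRG.43759.11 took 29.1%, 8.22% and 19.05% of the counts of MSTRG.43759.9, MSTRG.43759.10 and itself in LPS_ES_PMMA 1 to 3, against 99.6%, 99.8% and 98.6% in LPS_PMMA 1 to 3, with exact 95% intervals at most 2.43 points wide. The sum of the 3 was 8974, 2043 and 8632 counts in LPS_ES_PMMA and 4924, 4661 and 3854 in LPS_PMMA, which overlapped. Over the 10 assembled members near the short or the long form in intronic bases, those near the long form took 22.8%, 18.1% and 15.6% in LPS_ES_PMMA and 93.0%, 71.7% and 78.4% in LPS_PMMA. Their means were 18.8% ± 3.62 in LPS_ES_PMMA and 81.1% ± 10.9 in LPS_PMMA (SD, n = 3 each), without overlap. The 2 forms of Spp1 differ by 52 intronic bases.

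That pattern rested on the 3 transcripts in which it was seen, which held 59.4% to 93.4% of these counts per library. In a division chosen after seeing the data, these 3 transcripts were left out. The 7 others near either form gave shares near the long form of 7.34%, 32.6% and 6.64% in LPS_ES_PMMA, against 0%, 7.02% and 5.52% in LPS_PMMA. By counting error alone, the 0 of 349 counts in LPS_PMMA 1 allows up to 0.86%. The means were 15.5% ± 14.8 in LPS_ES_PMMA and 4.18% ± 3.70 in LPS_PMMA (SD, n = 3 each), the groups overlapped, and the difference had the opposite sign. The LPS_ES_PMMA mean rested on LPS_ES_PMMA 2, through 454 counts of MSTRG.43759.8, and was 6.99% without that library, with the groups still overlapping.

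**Figure D4:**
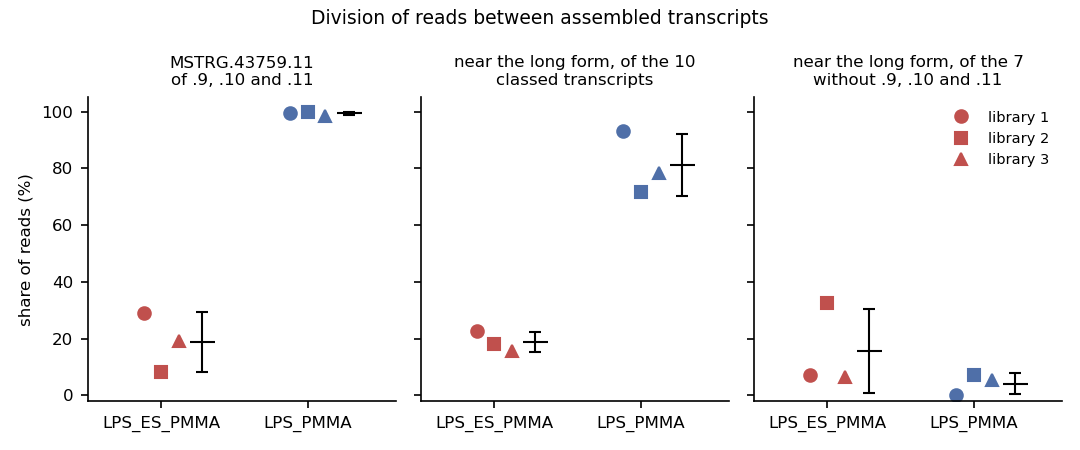
Points give, for each library, the share (%) of MSTRG.43759.11 in the counts of MSTRG.43759.9, MSTRG.43759.10 and itself (left), of the members near the long form among the 10 classed members (middle), and the same among the 7 left without these 3 (right); black marks are means with SD (n = 3). The groups are far apart in the left and middle panels, at 18.8% against 99.3% and 18.8% against 81.1%, and overlap in the right panel.

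The authors' deposited table gives the same direction for 12 of the 13 members, the exception being MSTRG.43759.3 (0.04 in the authors' deposited table and -0.31 in edgeR with TMM). The authors' values come from the same counts, and the locus was chosen with this comparison known. They are given as descriptions and are no independent evidence. In the authors' deposited table, MSTRG.43759.10 has a log2 fold change of 6.93 (q = 2.92e-20), MSTRG.43759.9 one of 8.28 (q = 5.4e-10), MSTRG.43759.11 one of -1.63 (q = 0.0203) and NONMMUT118967.1 one of 0.86 (q = 0.625), each LPS_ES_PMMA over LPS_PMMA. The authors' deposited table marks 5 of the 13 as up and 2 as down, against 1075 and 618 of all 24817. All 13 members passed the filter on low counts used here, but only 8873 of all features did. The 2 sets are therefore not alike, and nothing is read from these numbers. These marks do not follow the q-value, since in the authors' deposited table only 3 of the 7 marked members have a q under 0.05 and the other 4 have a q between 0.18 and 0.339. By the authors' unadjusted p the members do separate: all 7 marked have at most 0.0309 and the unmarked at least 0.0902.

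Listed positions around the interval held few counts. Of 18 listed transcripts within 150000 bases on either side, all but MSTRG.43755.19 are NONCODE transcripts. Assembled and annotated transcripts were listed with different offsets, so these may not lie next to the assembled members. Of the 18, 6 were tested and 0 passed in edgeR. The counts of the 18 over all 6 libraries ran from 3 to 777. The highest, MSTRG.43755.19, ends 64670 bases after MSTRG.43759.9, and Pkd2, the polycystin-2 gene next to Spp1, ends 64769 bases after Spp1 in GENCODE M21. The table lists lncRNAs, so protein-coding genes of the osteopontin pathway enter only through lncRNAs that the authors tied to them. None was tied to the genes of the SIBLING list (0 transcripts) or to proteases that cut osteopontin (0 transcripts). Osteopontin receptors (integrins and CD44) had 4 transcripts, all too low to test, with 51 counts in all. The most abundant were MSTRG.21316.1 in an intron of Itga5, with 8, 6 and 7 counts in LPS_ES_PMMA against 3, 3 and 2 in LPS_PMMA, and ENSMUST00000118734 at Itgav, with 3, 0 and 0 in LPS_ES_PMMA against 4, 0 and 2 in LPS_PMMA. Regulators of Spp1 transcription had 6, of which 1 was tested and 0 passed in edgeR. It was NONMMUT058148.2, tied to Mitf, a regulator of osteoclast genes, and it had 29, 26 and 23 counts in LPS_ES_PMMA against 12, 13 and 13 in LPS_PMMA, a difference of 0.81 on the log2 scale (SE 0.38) with an adjusted p of 0.256 in edgeR. The most abundant per length, MSTRG.47493.1 and MSTRG.47494.1, also at Mitf, were too low to test. Of 6 transcripts tied to chromosome 5 neighbours of Spp1, 1 was tested and 0 passed in edgeR: MSTRG.43701.1, in an intron of Klhl8, had 35, 12 and 21 counts in LPS_ES_PMMA against 16, 49 and 36 in LPS_PMMA. The other of the 2 highest, NONMMUT118954.1 at Klhl8, had 6, 3 and 6 counts in LPS_ES_PMMA against 3, 5 and 9 in LPS_PMMA.

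Marker genes were likewise seen only through lncRNAs. Of 3 transcripts tied to macrophage markers, 2 were tested and 0 passed in edgeR, and the 2 lay on opposite sides of 0. MSTRG.25685.1, antisense at Adgre1 (the macrophage antigen F4/80), had 38.6, 33.4 and 44.8 CPM in LPS_ES_PMMA against 59.5, 62.2 and 50.2 CPM in LPS_PMMA, a difference of -0.55 on the log2 scale (SE 0.25) with an adjusted p of 0.238 in edgeR. NONMMUT039756.2, at Mertk (a receptor for the uptake of dying cells), had 4.86, 5.07 and 4.38 CPM in LPS_ES_PMMA against 0.983, 2.75 and 2.17 CPM in LPS_PMMA, a difference of 1.22 (SE 0.45) with an adjusted p of 0.164 in edgeR. The groups did not overlap in either, where 30.8% of all tested features had no overlap by TMM-scaled CPM. Transcripts tied to osteoclast markers summed to 10 counts over all libraries, to fibroblast and osteoblast markers 22, to T and B cell markers 15 and to endothelial markers 0 (no transcript listed). The part of other cell types in the level of the locus was not tested.

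The transcripts whose profile over the 6 libraries was most like that of the locus were all of low level. By Pearson correlation of log2(CPM + 1) among 8385 tested transcripts with a mean FPKM of at least 1, the nearest to the locus sum was ENSMUST00000121218, in an intron of Piwil4 (r = 0.976, Spearman's rho = 0.83), with 6.80, 7.60 and 12.5 CPM in LPS_ES_PMMA against 5.41, 7.48 and 6.14 CPM in LPS_PMMA. NONMMUT046225.2 (r = 0.966), NONMMUT129156.1 (0.961), MSTRG.26262.1 (0.958) and MSTRG.43529.4 (0.954) followed. Nearest to MSTRG.43759.9 was ENSMUST00000206384, in an intron of Idh2 (r = 0.999), with 10.2, 9.62 and 10.4 CPM in LPS_ES_PMMA against 1.97, 1.97 and 3.97 CPM in LPS_PMMA. NONMMUT082283.1 (0.998), MSTRG.841.4 at Aox1 (0.997), NONMMUT016129.2 (0.996) and NONMMUT110188.1 (0.996) followed. These are the highest of many correlations over 6 libraries that fall into 2 groups, so they describe likeness only.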

How the data were processed

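Total RNA of 6 RAW264.7 samples (3 per group by the titles) had been made into libraries with a SMARTER mRNA kit, per the labels' protocols. The authors deposited whole-number counts per lncRNA transcript, FPKM, a length in bases per transcript, and their own comparison (log2 fold change, p-value and q-value), per the file headers. The submitters' processing notes name mm10; the sources used here name no aligner, counter or strand setting. Listed counts summed to between 1123551 and 3697638 per library, and the FPKM values imply totals of 2477950 to 4497910 reads.

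Counts were tested with edgeR 4.0.16 (R 4.3.3; quasi-likelihood, TMM; filterByExpr with a minimum count of 10 and total of 15) over all 8873 features that passed, with Benjamini-Hochberg adjustment and a threshold of 0.05; 422 passed. TMM factors ran from 0.559 to 1.82. The locus sum was fitted in place of its members. On simulated counts of 8952 tested features in the same 2 groups, with a 4-fold change put into some, 72 of 100 raised and 40 of 93 lowered features passed, and 3.45% of calls were false. The simulation gave all features the same dispersion and set libraries by column totals only. Its rates need not hold for the deposited counts. DESeq2 1.42.0 and limma 3.58.1 (log2 of FPKM plus 0.1 or 1) were alternatives, beside other scalings, filters and omitted libraries. Replicates differed beyond sampling noise (chi-square per degree of freedom 15.4 to 45.5). Sizes were compared with GENCODE M21 (GRCm38). Members, gene lists and tests were chosen with earlier results of these data known. Named genes were all members, the 4 transcripts of highest mean FPKM elsewhere, and the 5 most correlated with the locus sum and with MSTRG.43759.9. The 2 of highest mean FPKM tied to each gene list, where none passed, were named as well. MSTRG.43755.19, NONMMUT058148.2 and NONMMUT118961.1 were picked after their values were seen.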

Additional observations from a re-analysis of the deposited data

How the results depend on the processing

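The locus sum and NONMMUT118967.1 stayed higher in LPS_ES_PMMA and short of the threshold in all alternatives run (19 and 16). The 19 hold the limma fit of summed FPKM again under another name. Over the edgeR, DESeq2 and limma fits, the log2 fold change of the sum lay between 0.21 and 1.21 and its adjusted p between 0.127 and 0.843. The locus was chosen with this comparison known, so passes of its members under other settings are no independent evidence. MSTRG.43759.10 passed in 16 of 16 alternatives. MSTRG.43759.9 passed in 8 of 16. It stayed higher but did not pass in robust edgeR (8.08), with a mean FPKM of at least 1 (8.09) or with the replicate number as a block (9.43). The cause was not tested. When a library was left out it ranged from 7.48 to 14.30, the highest without LPS_PMMA 3, where the prior count set it. Among the members other than NONMMUT118967.1 and MSTRG.43759.9, 1 passed, against 2 in DESeq2, which added MSTRG.43759.11. Changes of sign in members that never passed were MSTRG.43759.3 with column totals (0.30), implied totals (0.037) and without LPS_ES_PMMA 2, and MSTRG.43759.8 and MSTRG.43759.2 without LPS_ES_PMMA 2. Leaving out 1 library gave -0.94 to 0.0097 for MSTRG.43759.3, -0.67 to 3.53 for MSTRG.43759.8 and -1.61 to 2.26 for MSTRG.43759.2, the value without LPS_ES_PMMA 2 being the highest for the first and the lowest for the others. DESeq2 gave MSTRG.43759.8 no adjusted p. By FPKM, NONMMUT118967.1 made up 94.2% of the locus in LPS_ES_PMMA and 93.8% in LPS_PMMA; the share of the locus in the library was 8.78% in LPS_ES_PMMA against implied totals. The alternatives on the long form's share were chosen after seeing the data; without MSTRG.43759.9, MSTRG.43759.10 and MSTRG.43759.11 it was 4.18% in LPS_PMMA and 15.5% in LPS_ES_PMMA, or 6.99% without LPS_ES_PMMA 2. Over all features 422 passed, against 174 with no filter, 200 with a mean FPKM of at least 1 and 50 to 136 without 1 library. The labels number the replicates alike in both groups, but same-numbered libraries did not deviate together (correlations -0.0196, -0.0246 and -0.0931), so the numbers are not taken to pair them; with the replicate block 41 features passed and the locus sum had a log2 fold change of 0.45. A count of 0 in a library allows up to 3 counts by counting error alone.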
